A study of Mus musculus with 4 samples.

Results

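The 4 nuclear factor I (NFI) genes of the mouse, Nfia, Nfib, Nfic and Nfix, were examined in ATAC-seq peak lists, in the gene body of each and 100 kb on either side. ATAC-seq reads open chromatin from the places a transposase can reach, and a peak is a stretch with more inserted fragments than its surroundings. Peaks of the 4 lists that overlapped were joined into regions, and these windows held 531 of the 357570 regions of the genome with a peak. They held 742 of 489558 peaks. The 4 libraries, 1 per line, are written S1 and S2 for SMC line 1 and SMC line 2, and N1 and N2 for non-SMC line 1 and non-SMC line 2. SMC lines are NCAM-high, CD44-low or CD44-negative cells and non-SMC lines are NCAM-low, CD44-high cells, both sorted from lung tumors of RP mice and grown without treatment. All 4 lines carry the Rb1 and Trp53 deletion of that model (Rb1 L/L, Trp53 L/L) on a mixed background of C57Bl/6, Balb-c and S129, so each type is modelled by 2 lines. The series is described as paired and its lines are numbered 1 and 2, but nothing ties equal numbers to 1 mouse, batch or day. Lines that share a number are compared below by that number alone.

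NFI proteins bind DNA as dimers through a conserved amino-terminal domain, and their site is a palindrome of TTGGC and its reverse complement. They regulate differentiation in brain, lung and muscle, NFIA in particular the onset of glial development. NFIB is known for its role in lung maturation, and the mouse Nfib gene is recurrently amplified in small cell lung cancer, where NFIB has been linked to metastasis and to the opening of chromatin. Among the 4 members, NFIC is known for its role in tooth root formation, and NFIX for fetal muscle and neural stem cells.

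On mm10, Nfia lies on the plus strand at chr4:97772734-98118874, and Nfib on the minus strand of the same chromosome at chr4:82290173-82705750. Nfic is at chr10:81396186-81455635 and Nfix at chr8:84699876-84800344, both on the minus strand. The gene bodies are 346.1 kb for Nfia, 415.6 kb for Nfib, 59.5 kb for Nfic and 100.5 kb for Nfix, so the windows examined differ in size and in the number of regions they can hold.

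A region is called SMC-only where S1 and S2 both had a peak and N1 and N2 both lacked one, and non-SMC-only in the reverse case. The sequences below are those of the SMC-only region of highest rank near Nfia and of the 3 highest SMC-only and 3 highest non-SMC-only regions of Nfib, which is the locus with most of these regions. They are 201 bases around the summit of the highest peak, on the plus strand of GRCm38 (mm10). Capitals mark matches, on either strand, to the NFI core TTGGC, AP-1 (TGANTCA), an E-box (CAGCTG), TEAD (GGAATG), RUNX (TGTGGT) or SOX (ACAATG).
Nfia SMC-only, 57.9 kb upstream, chr4:97714713-97714913: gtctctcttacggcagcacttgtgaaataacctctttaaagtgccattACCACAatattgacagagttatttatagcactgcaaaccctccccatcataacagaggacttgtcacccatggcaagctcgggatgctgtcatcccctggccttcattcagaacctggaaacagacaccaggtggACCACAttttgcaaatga
Nfib SMC-only, intron, chr4:82664052-82664252: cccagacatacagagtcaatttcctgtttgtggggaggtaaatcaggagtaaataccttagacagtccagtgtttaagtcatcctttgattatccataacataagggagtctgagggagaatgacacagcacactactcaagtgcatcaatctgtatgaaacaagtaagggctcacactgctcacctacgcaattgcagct
Nfib SMC-only, intron, chr4:82328315-82328515: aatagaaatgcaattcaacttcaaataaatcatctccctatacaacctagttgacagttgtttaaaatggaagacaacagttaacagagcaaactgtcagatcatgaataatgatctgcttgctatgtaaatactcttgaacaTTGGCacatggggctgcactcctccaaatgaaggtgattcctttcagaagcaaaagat
Nfib SMC-only, downstream flank, chr4:82207541-82207741: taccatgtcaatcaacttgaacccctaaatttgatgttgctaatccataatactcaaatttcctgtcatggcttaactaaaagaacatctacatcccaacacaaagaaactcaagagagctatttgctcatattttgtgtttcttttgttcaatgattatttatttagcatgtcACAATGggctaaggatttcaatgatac
Nfib non-SMC-only, intron, chr4:82435901-82436101: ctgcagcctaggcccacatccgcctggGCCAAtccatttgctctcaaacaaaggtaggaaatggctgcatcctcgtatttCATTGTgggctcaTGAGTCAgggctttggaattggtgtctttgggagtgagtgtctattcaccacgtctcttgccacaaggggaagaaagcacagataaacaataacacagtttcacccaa
Nfib non-SMC-only, intron, chr4:82386343-82386543: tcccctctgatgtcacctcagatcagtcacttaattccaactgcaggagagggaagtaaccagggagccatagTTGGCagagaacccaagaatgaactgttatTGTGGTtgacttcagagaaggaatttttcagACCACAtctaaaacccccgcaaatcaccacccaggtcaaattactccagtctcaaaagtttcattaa
Nfib non-SMC-only, intron, chr4:82549862-82550062: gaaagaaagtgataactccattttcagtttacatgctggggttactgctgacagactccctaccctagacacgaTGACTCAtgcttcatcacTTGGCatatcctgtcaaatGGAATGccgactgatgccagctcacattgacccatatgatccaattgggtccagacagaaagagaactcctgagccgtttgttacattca
All 3 of the Nfib non-SMC-only sequences contain TTGGC or its reverse complement, 2 of them contain an AP-1 match, and the remaining one has a pair of RUNX matches. Of the 3 Nfib SMC-only sequences, the first has no match, the second has 1 NFI core and the third has 1 SOX match. The Nfia sequence has 2 RUNX matches and no NFI core.

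The lists were of unequal depth. The lowest background of each library implied 8.36 M reads in S1, 29.4 M in S2, 23.5 M in N1 and 10.4 M in N2, and the lists kept 91057, 153954, 115837 and 128710 peaks. These depths rest on an assumed genome size and on the shortest peak standing for the fragment length. Fold enrichment is the pileup of fragments over the local background of the same library, so its values in different libraries are not on one scale. Regions were therefore ranked by their percentiles within each list, and fold enrichments are printed as listed. With 2 libraries per type the smallest p of an exact two-sided permutation test is 0.333, so SMC and non-SMC were compared without a test. The lines differ in how they were sorted, and the SMC lines grow in suspension while the non-SMC lines adhere, so these differences cannot be told apart. In bulk samples, fewer cells with an open site and less opening per cell cannot be told apart either. At the promoters of marker genes most calls were shared between the types. That of Chga, which encodes chromogranin A, was SMC-only in this sense. Ncam1 and Syp had peaks in all 4 libraries, and Insm1 in all but N2. Of the mesenchymal markers, Vim, Tgfbi and Cav1 had peaks in all 4, and Cd44 and Axl in all but S1. The -log10 q of the Cd44 peak was 50.2 in N1, 29.1 in N2 and only 1.04 in S2. For Vim it was 33.4 in N1 and 14.7 in N2, and 1.23 in S1 and 2.66 in S2. Once peaks below 5 were dropped, the Cd44 and Vim promoters were non-SMC-only. Tgfbi then had no peak, Axl kept a peak in N1 alone, and Cav1 lacked a peak in S2 alone. Ncam1 kept a peak in all 4 libraries and Chga stayed SMC-only, while Syp and Insm1 kept a peak in S2 alone. For other cell types, the leukocyte gene Ptprc had a peak in N1 alone, the endothelial gene Pecam1 in both non-SMC lines, the alveolar gene Sftpc in S1 alone and the club cell gene Scgb1a1 in none.

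**Figure D1:**
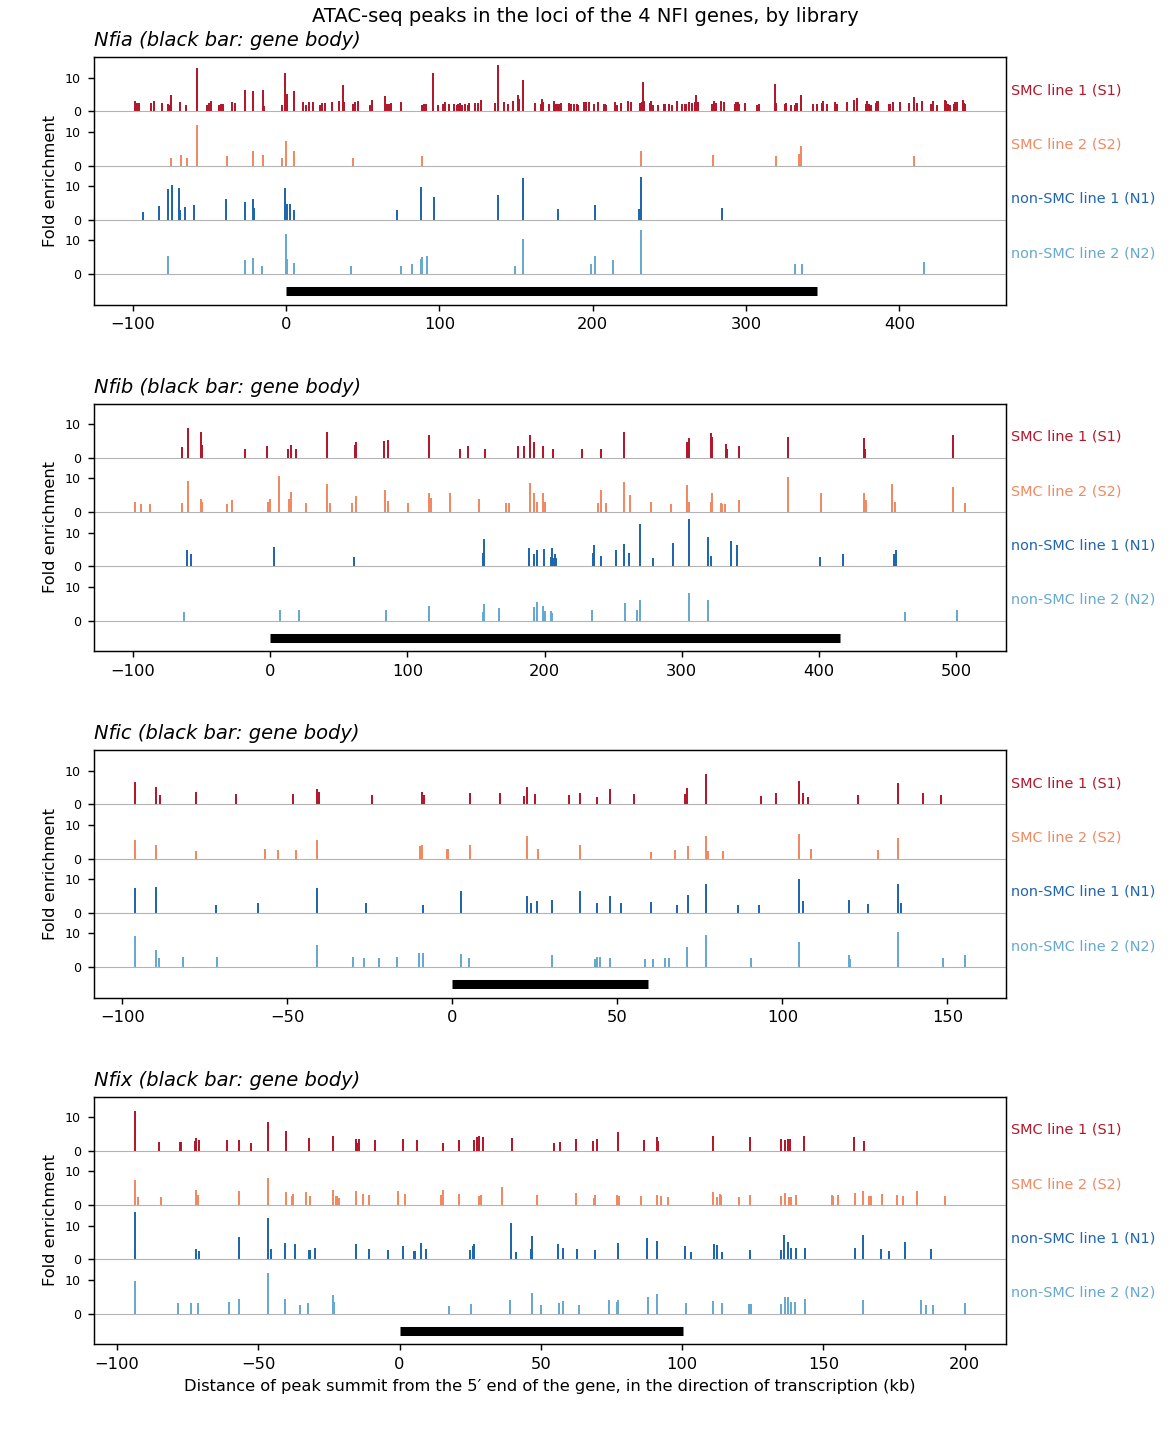
Peaks of the 4 NFI loci in each library. The horizontal axis is the distance of the summit from the 5′ end of the gene in kb, and the height of a line is the fold enrichment of the peak. S1 has 199 peaks across the Nfia locus, and the other 3 libraries have 18 to 27.

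The Nfib locus held the most SMC-only regions. Of its 106 regions, 15 were SMC-only (14.2%) and 6 were non-SMC-only (5.66%), where 4.37% of all 357570 regions of the genome were SMC-only and 7.33% non-SMC-only. A peak in all 4 libraries was found at 3 regions of Nfib (2.83%), and at 3.81% of all regions. With a reciprocal overlap of 50%, Nfib had 1 such region. Among regions with a peak in at least 2 libraries, 15 of 33 (45.5%) were SMC-only in Nfib, against 18.9% in the genome. Split by line number rather than by type, 0 regions of Nfib had peaks in both lines 1 alone and 1 in both lines 2 alone. Such regions were also rare in the genome, at 2662 and 4806 of 357570. Of the windows of all 21938 protein-coding genes built in the same way, 0.141% held 15 or more SMC-only regions, and the median window held 1. Per 100 kb, Nfib had 2.44 SMC-only regions, and 2.89% of genes had as many or more. The count needs both SMC lines. It was 48 of 92 (52.2%) with S1 left out and 31 of 75 (41.3%) with S2 left out, while the genome then had 37.8% and 24.7% of its regions in that class. At a -log10 q of at least 5, 6 of 36 regions of Nfib were SMC-only (16.7%, against 6.12% in the genome) and 4 non-SMC-only (11.1%, against 20.1%).

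The number of peaks in the Nfib locus was 41 in S1, 61 in S2, 33 in N1 and 22 in N2. Over all listed peaks, both SMC values were above both non-SMC values. SMC averaged 51 ± 14.1 peaks (SD, n = 2) and non-SMC 27.5 ± 7.78 (SD, n = 2). S1 minus N1 was 8 peaks and S2 minus N2 was 39. S1 was the shallower library of the former and S2 the deeper of the latter. Counting only peaks whose -log10 q reached 5 gave 10 in S1, 22 in S2, 14 in N1 and 4 in N2. The types were then not separated, since S1 was below N1. All listed peaks of the locus covered 10464 bp in S1, 17691 in S2, 10450 in N1 and 6263 in N2. By this measure S1 and N1 were nearly equal. The local background of the Nfib peaks, over the lowest of the library, had a median of 1.23 in S1, 1.15 in S2, 1.26 in N1 and 1.00 in N2, and no raised stretch was found at this locus in any library.

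The SMC-only regions of Nfib ran from 64.2 kb upstream of the gene to 498.1 kb from its start, beyond its far end. Introns held 9 of them, the upstream flank 3 and the downstream flank 3, and all 6 non-SMC-only regions were in introns. The first of the highest was at chr4:82663936-82664730, in an intron 41.6 kb from the start. It had a fold enrichment of 7.79 in S1 and 8.44 in S2, the 93.9 and 95.6 percentiles of those lists. The second, at chr4:82328219-82328555 in an intron 377.3 kb from the start, had 6.18 in S1 and 10.2 in S2. The third lay in the downstream flank at chr4:82207493-82207932, with 6.87 and 7.49. These 3 regions had percentiles of at least 88.1 in both SMC lists, and the sequences of their summits are shown above. In 4 of the 15 regions both peaks had a -log10 q of at least 5, in 6 only one had it, and in 5 neither did. The lowest of the 15, at chr4:82769899-82770070, had 3.31 and 2.61, at the 42.6 and 19.5 percentiles.

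The non-SMC-only region of highest rank in Nfib was at chr4:82435724-82436192, in an intron 269.7 kb from the start. Its fold enrichment was 12.6 in N1 and 6.10 in N2. The next was at chr4:82386322-82386855 in an intron, with 8.68 and 6.10, and the one after it at chr4:82549838-82550246, with 7.98 and 4.88. The first and second had percentiles of at least 84.3 in both non-SMC lists, and the third had 83.3 and 76.6. The last of the 6, at chr4:82500800-82500999, had 2.67 and 2.80, at the 14.3 and 25.5 percentiles.

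Sites of Nfib that were open in both types stood between these regions. The intronic region chr4:82447090-82447748, 258.2 kb from the start, had a fold enrichment of 7.66 in S1, 8.79 in S2, 6.74 in N1 and 5.33 in N2. The intronic region chr4:82399826-82400909 had 5.77, 2.91, 14.1 and 8.27 in the same order. Its peaks in S1 (82400053-82400250) and S2 (82400679-82400814) did not overlap and were joined through the wider peaks of N1 and N2. The region held the highest peak of the locus in both non-SMC lines. An SMC-only region, at chr4:82401533-82401962 with 4.59 in S1 and 8.02 in S2, lay within 1 kb of it. The highest peak of S1 was 60.2 kb upstream, at chr4:82765592-82766239, with 8.78, and S2 had 9.17 there, N1 4.75 and N2 no peak. The highest of S2 was at chr4:82698483-82699449, 6.62 kb into the gene, with 10.6, where S1 and N1 had no peak and N2 had 3.05.

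**Figure D2:**
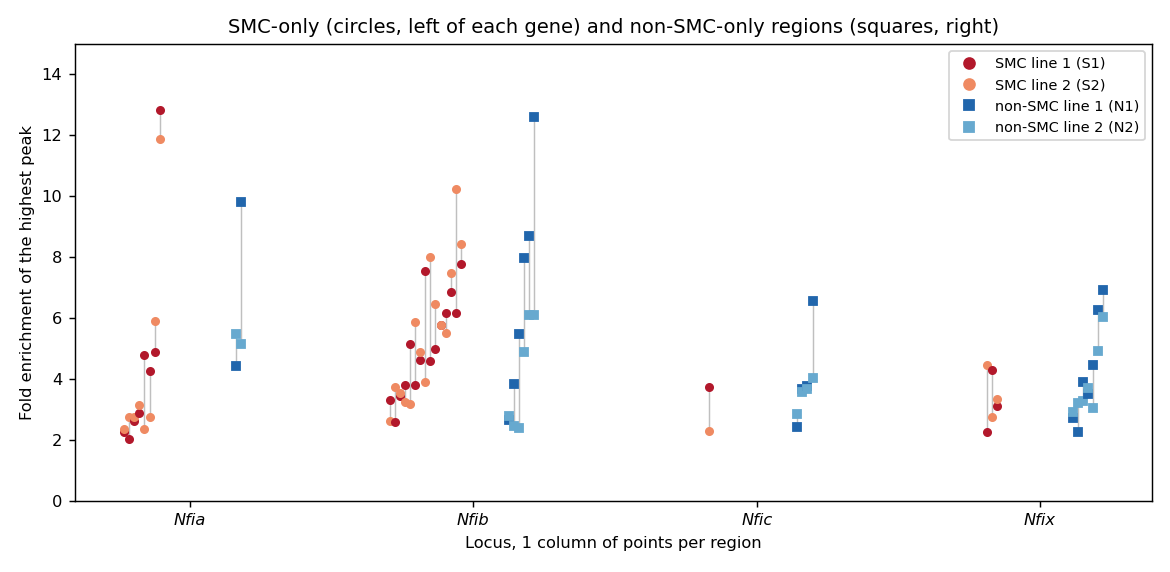
Fold enrichment of the highest peak in each SMC-only region (circles, SMC lines) and each non-SMC-only region (squares, non-SMC lines) of the 4 loci. A gray line joins the 2 lines of a region, regions are ordered by mean percentile within each group, and the 15 SMC-only regions of Nfib outnumber those of the other loci.

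The Nfia locus was unlike the others in S1. It held 199 peaks in S1, 18 in S2, 27 in N1 and 22 in N2. SMC averaged 108.5 ± 128 peaks (SD, n = 2) and non-SMC 24.5 ± 3.54 (SD, n = 2), a difference smaller than the spread between the SMC lines. The local background of these peaks was raised in S1. Recovered from the fold enrichment and p-value of each peak and divided by the lowest background of the library, its median was 18.6 in S1, 1.00 in S2, 1.07 in N1 and 1.00 in N2. The lowest ratio in S1 was 9.19 and the highest in any of the other 3 libraries was 2.89, so the values did not overlap. In bins of 50 kb the median ratio of S1 was between 15.2 and 28.5 in all 11 bins. It was part of a raised stretch of 994.3 kb, chr4:97402087-98396394, with 318 peaks and a median ratio of 17.9, which covers the whole window. The cause was not tested.

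The peaks of S1 in the Nfia locus were shallow in fold but high in reads. Their median pileup was 23 fragments over a background of 8.49, and their median fold enrichment was 2.44. The median pileup of the other 3 libraries there was 7, 12 and 6. Only 22 of the 199 peaks (11.1%) overlapped a peak of another library, against 48.4% of all peaks of S1 and 63.4% of its peaks at Nfib. Of the 226 regions of Nfia, 177 had a peak in S1 alone. S1 therefore enters most counts for Nfia that need only 1 library.

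**Figure D3:**
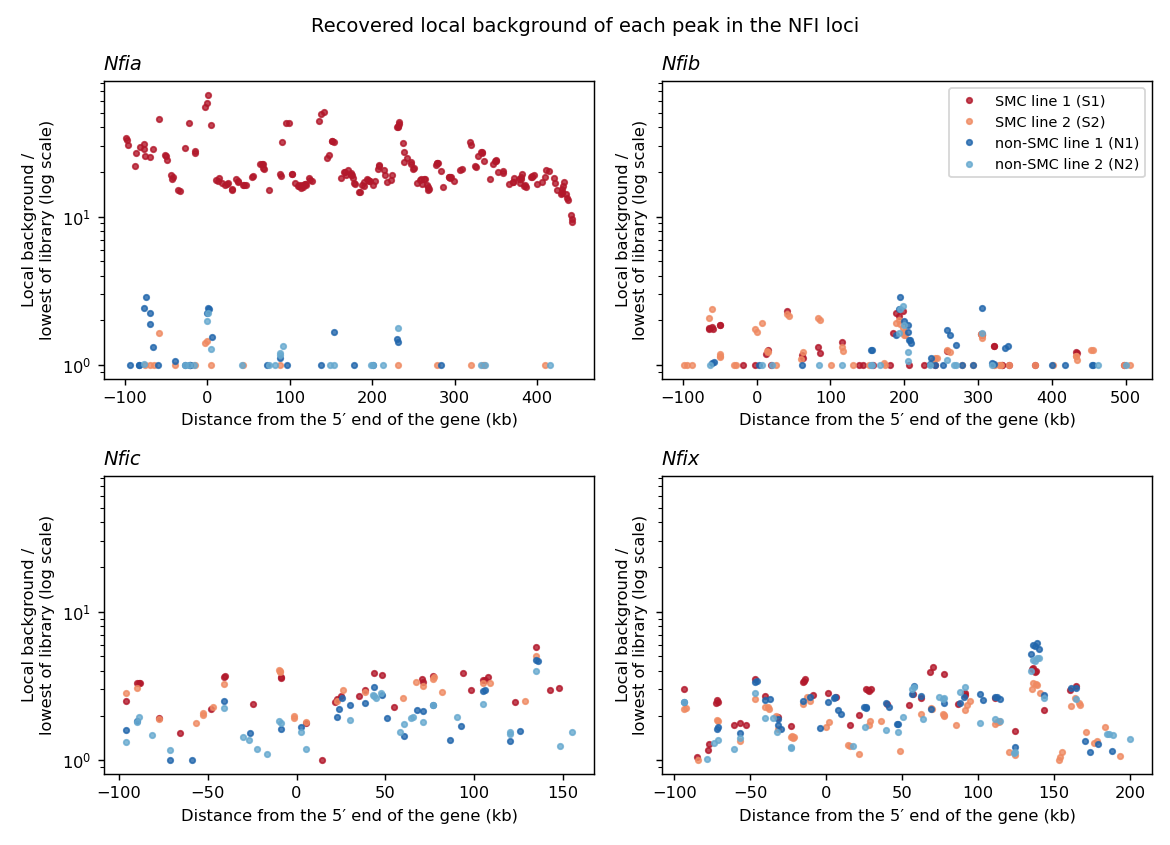
Local background of each peak over the lowest background of its library, on a log scale, against the distance from the 5′ end of the gene in kb, 1 point per peak. In the Nfia locus the points of S1 lie between 9.19 and 66.4, above those of the other libraries, and at Nfib all 4 libraries lie below 3.

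SMC-only regions at Nfia numbered 8 of 226 (3.54%, against 4.37% in the genome), and non-SMC-only regions 2 (0.885%, against 7.33%). The 226 include the 177 found in S1 alone. Of the 23 regions with a peak in at least 2 libraries, 8 were SMC-only (34.8%, against 18.9%) and 2 non-SMC-only (8.70%, against 31.7%). With S1 left out the SMC-only count was 14 of 52 (26.9%, against 37.8% in the genome). The non-SMC-only count was then 6 (11.5%, against 9.20%), so its low share depended on S1. With S2 left out the counts were 185 of 222 (83.3%, against 24.7%) and 2 (0.901%, against 12.2%). Of the windows of all protein-coding genes, 1.76% held 8 or more SMC-only regions, and 14.7% of genes had as many or more per 100 kb. One of the 8 SMC-only regions of Nfia stood apart in both lines. At chr4:97714453-97715127, 57.9 kb upstream of Nfia, the fold enrichment was 12.8 in S1 and 11.9 in S2, at the 99.4 and 98.8 percentiles. The pileup there was 277 fragments in S1, at a background ratio of 45.3, and 41 in S2, at a ratio of 1.65. It was also the highest peak of S2 in the locus, and neither non-SMC line had a peak there. The second, at chr4:98108643-98108979 in an intron 336.0 kb from the start, had 4.90 and 5.91. The third lay in the downstream flank at chr4:98181801-98182479, with 4.27 and 2.76. The other 5 had a fold enrichment of at most 4.80 in S1 and 3.15 in S2. In 2 of the 8 regions both peaks had a -log10 q of at least 5, in 2 only one had it, and in 4 neither did. At that limit 2 of 41 regions were SMC-only (4.88%, against 6.12% in the genome). With lists cut to an equal length 4 of 219 were (1.83%, against 5.62%).

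The non-SMC-only regions of Nfia were both intronic. At chr4:97860447-97861194, 87.8 kb from the start, the fold enrichment was 9.80 in N1 and 5.14 in N2. At chr4:97974224-97974447, 201.6 kb from the start, it was 4.43 and 5.49. The highest peaks of both non-SMC lines were at a site open in all 4 libraries, chr4:98003802-98004623 in an intron, with 2.67 in S1, 4.33 in S2, 12.7 in N1 and 13.1 in N2. These were the 12.3, 80.3, 95.6 and 98.8 percentiles of the lists. S1 had its highest peak at chr4:97910334-97911358, also intronic, with 13.6 and a pileup of 317, at a background ratio of 48.9. N1 had 7.24 there, and the other 2 libraries no peak.

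The loci of Nfic and Nfix held fewer SMC-only regions than those of Nfia and Nfib. At Nfic they were 1 of 77 regions (1.30%) and the non-SMC-only regions 4 (5.19%), and at Nfix 3 of 122 (2.46%) and 7 (5.74%). Over the whole windows both classes were below the shares of the genome at both loci. In the gene body alone, Nfix had 3 of 43 SMC-only regions (6.98%) and 5 non-SMC-only (11.6%), both above those shares. Nfic had 0 of 18 SMC-only regions there and 2 non-SMC-only (11.1%). By count per window, Nfix was above the median gene, which held 1 SMC-only and 3 non-SMC-only regions. Of all protein-coding genes, 28.8% had as many SMC-only regions as Nfix or more, and 14.2% as many non-SMC-only regions. For Nfic these shares were 68.2% and 40.5%. Regions with a peak in all 4 libraries were 8 at Nfic (10.4%) and 11 at Nfix (9.02%), above the 3.81% of the genome. All 8 at Nfic lay in the flanks and 6 of them within 3 kb of the start of a gene. Of the 11 at Nfix, 9 did. These windows hold the starts of 16 and 12 neighbouring protein-coding genes, where that of Nfia holds 1 and that of Nfib none. Of the 29 neighbours, 18 had promoter peaks in all 4 libraries, 2 were non-SMC-only and 0 SMC-only, where 48.7%, 2.45% and 3.08% of all protein-coding genes fell in these classes. The 2 were Gna15, a G protein subunit near Nfic, and Lyl1, a transcription factor of blood cells near Nfix.

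The number of peaks did not separate the types at these loci. At Nfic it was 34 in S1, 27 in S2, 28 in N1 and 32 in N2, and at Nfix 45, 61, 51 and 41 in the same order. For Nfic, SMC averaged 30.5 ± 4.95 (SD, n = 2) and non-SMC 30 ± 2.83 (SD, n = 2). For Nfix it was 53 ± 11.3 (SD, n = 2) and 46 ± 7.07 (SD, n = 2), and the groups overlapped in both.

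One non-SMC-only region of Nfic lay close to its start. At chr10:81452659-81453372, in an intron 2.69 kb from the 5′ end, the fold enrichment was 6.57 in N1 and 4.03 in N2, and neither SMC line had a peak. The intronic region chr10:81425008-81425579 had 3.78 and 3.66, and chr10:81335373-81335548 in the downstream flank had 3.68 and 3.58. The SMC-only region of Nfic, chr10:81533149-81533412, had 3.74 in S1 and 2.29 in S2, and lay 77.7 kb upstream. Neither of its peaks had a -log10 q of at least 5. In 0 of the 4 non-SMC-only regions both peaks had it, in 1 only one had it, and in 3 neither did. At that limit 0 of 13 regions of Nfic were SMC-only and 0 non-SMC-only. The highest peaks of the window were at neighbours. That of S1 (8.90) lay at the start of Fzr1 and those of S2 (7.20) and N1 (10.1) at Hmg20b, and that of N2 (10.5) at Cactin.

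At Nfix, both non-SMC lines had a peak at chr8:84753195-84753496, in an intron 46.9 kb from the start, with 6.93 and 6.02, the 78.9 and 83.6 percentiles. The intronic region chr8:84712295-84712752 had 6.27 and 4.93, and chr8:84743738-84744302 had 4.46 and 3.06. The first and second had a -log10 q of at least 5 in both lines. The mean percentiles of the 7 non-SMC-only regions ran from 22.6 to 81.3. The 3 SMC-only regions were all intronic, with mean percentiles of 41.5 to 49.6. They had 3.13 and 3.35 at chr8:84778875-84779230, 4.28 and 2.74 at chr8:84772190-84772545, and 2.24 and 4.46 at chr8:84784900-84785052. None had a -log10 q of at least 5 in either line. The intronic region chr8:84760309-84761345 had 10.6 in N1, 3.96 in N2, 3.84 in S1 and no peak in S2. As at Nfic, the highest peaks of the window were at neighbours. S1 (11.8) and N1 (14.0) had theirs at Gcdh, and S2 (8.06) and N2 (12.1) at Calr, which encodes calreticulin.

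**Figure D4:**
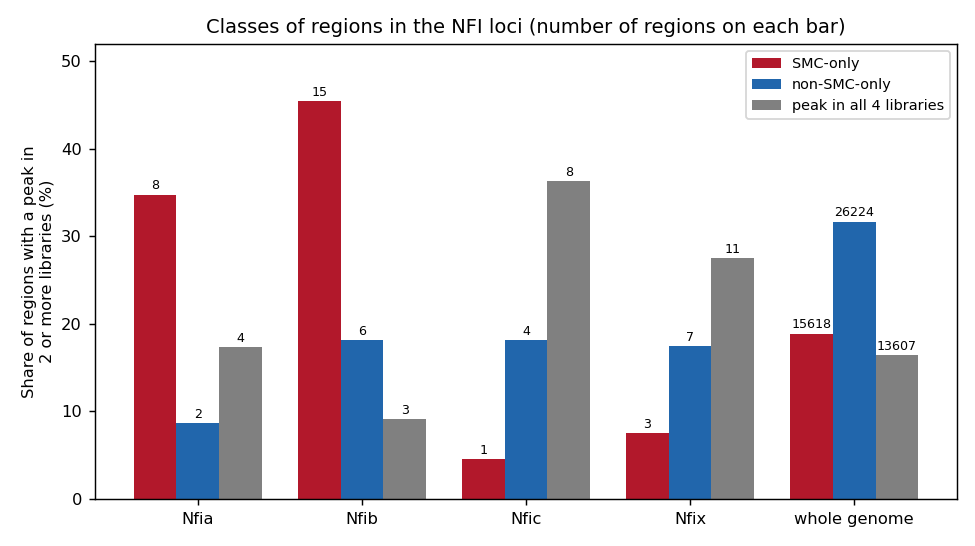
Share of the regions with a peak in at least 2 libraries that fell in each class, for the 4 loci and the whole genome, with the number of regions on each bar. SMC-only regions made up 45.5% at Nfib and 18.9% in the genome, and at Nfic and Nfix regions with a peak in all 4 libraries made up the largest of the 3 shares.

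Within the 6 kb centred on the 5′ end of each gene, a peak was found in 13 of the 16 combinations of gene and library. The count was 6 within 2 kb, and also 6 among peaks whose -log10 q reached 5. In the 6 kb window Nfia had a peak in all 4 libraries, a class that held 48.7% of all 21938 protein-coding genes. Its region at the start, chr4:97771875-97772650, had a fold enrichment of 11.2 in S1, 7.40 in S2, 9.28 in N1 and 11.9 in N2, and all 4 peaks passed a -log10 q of 5. None of the 4 genes was SMC-only or non-SMC-only, classes of 3.08% and 2.45% of genes.

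At the 5′ end, the other 3 genes each lacked a promoter peak in 1 library. Counted at the start of every transcript, all 16 combinations had a peak, those of Nfix in N2 and Nfic in S1 at internal starts. Nfib had a highest fold enrichment of 3.43 in S1, 3.93 in S2 and 5.63 in N1, and none in N2. The summits of S1 and N1 lay 2266 bp upstream and 2789 bp downstream of the 5′ end. Nfix had 3.49, 4.22 and 3.88 in the same libraries and also none in N2. Nfic had 2.76 in S2, 6.57 in N1 and 4.03 in N2, and none in S1. The missing values fell in the 2 libraries with the lowest implied depth, and their cause was not tested. The annotation gives Nfib further starts inside the gene, between chr4:82505308 and chr4:82505770, about 200 kb from its 5′ end. All 4 libraries had a peak within 3 kb of these internal starts. The highest was 3.40 in S1, 5.58 in S2, 5.06 in N1 and 4.25 in N2.

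Of 8 genes known as targets of NFI proteins, 5 were open at the promoter in every library, 0 were SMC-only and 0 non-SMC-only. Over all genes these classes held 48.7%, 3.08% and 2.45%, so 8 genes are too few to set the targets apart. The 5 were Gfap, the intermediate filament of astrocytes, Hes1, a transcription factor of the Notch pathway, Ezh2, a Polycomb methyltransferase, Cdh2, which encodes N-cadherin, and Ephb1, an ephrin receptor. At Ezh2 the fold enrichment was 8.23 in S1, 11.6 in S2, 12.3 in N1 and 8.61 in N2. Fabp7, a fatty acid binding protein of glia, had a peak of 3.15 in S2 alone. Cntn2, a cell adhesion protein of axons, had 2.86 in S1, 5.45 in S2 and 2.49 in N1. Gabra6, a GABA receptor subunit, had none.

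The NFI core was in a share of these regions close to that of all regions. Around the highest summit of a region, with 100 bp on each side, TTGGC on either strand was in 186 of 531 regions (35.0%) and in 34.2% of all regions. It was in 9 of 27 SMC-only regions of the 4 loci, 7 of 19 non-SMC-only and 11 of 26 with a peak in all 4 libraries, where the shares of the genome were 39.6%, 38.2% and 42.7%. At Nfib, 7 of 15 SMC-only and 4 of 6 non-SMC-only regions held it, and at Nfia 0 of 8 SMC-only regions did. The full palindrome, which is TTGGC and its reverse complement with 5 bases between them, was in 1 of the 531 regions, at Nfia, and in 0.0576% of all regions.

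The other motifs are given as counts over few regions. AP-1 was in 2 of 27 SMC-only and 6 of 19 non-SMC-only regions of the loci, and in 6.59% and 55.5% of those classes in the genome. RUNX was in 3 of 27 and 9 of 19, against 13.7% and 29.7%. SOX was in 6 of 27 and 2 of 19, against 20.7% and 12.8%. The E-box was in 5 of 27 and 4 of 19, against 21.1% and 14.1%, and TEAD in 1 of 27 and 4 of 19, against 9.48% and 19.3%. At Nfib, RUNX was in 0 of 15 SMC-only regions and 4 of 6 non-SMC-only regions, and SOX in 5 of 15 and 1 of 6. AP-1 was there in 2 and 2, the E-box in 4 and 0, and TEAD in 1 and 2. These counts change with the window. With 50 bp on each side RUNX was in 0 and 4 and SOX in 1 and 1, and with 250 bp RUNX was in 3 and 4 and SOX in 7 and 2. A match is a match of letters only. The median GC content of these 201 bases was 49.3% in the SMC-only and 53.2% in the non-SMC-only regions of the loci, and 59.5% in those with a peak in all 4 libraries.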

How the data were processed

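ATAC-seq was performed on 1 library from each of 2 SMC and 2 non-SMC lines. The authors mapped reads to mm10 with Bowtie2 2.3.4, removed duplicates and called peaks with MACS2 2.1.1 in each library. Settings of the peak calling are not given in the sources used here. Fold enrichment, as the authors deposited it, is the ratio of pileup to local background, each with 1 added. The authors also deposited -log10 values of p and q for each summit, and a score that was not used. Positions are on mm10 (GRCm38), with the protein-coding genes of GENCODE M21. Peaks were merged at an overlap of at least 1 base.

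Pileup and background were recovered for every peak from fold enrichment and p, taking p from a Poisson distribution. Of 19997 simulated peaks, 100% came back within 1%. They were simulated with the same formula, so this checks the inversion and not whether the lists follow that formula. Printed sequences were read from the RefSeq copy of GRCm38. Merging was checked against bedtools. Promoters were the 6 kb centred on the 5′ end of a gene, and motifs on either strand were searched 100 bp to each side of the highest summit (by fold enrichment) of a region. Implied depth assumes a mappable genome size of 1.87e+09 bases. A raised stretch joins 100 kb windows that hold 10 or more peaks and whose median ratio reaches 5. Regions are named by locus where they hold the highest peak of a library, cover a start, or are among the 3 SMC-only or 3 non-SMC-only regions of highest mean percentile. Other named regions (the lowest of a class and sites open in both types) were chosen after their values were seen. The members, lists and rules were chosen with earlier results of these data known.

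Alternatives tried were peaks with a -log10 q from 5 upward, lists cut to an equal length (91057 peaks), each library left out, the gene body alone, a flank of 50 kb, a reciprocal overlap of 50%, thinning to 50% of the shallowest depth, a mean over same-numbered lines, promoters of 2 kb or at every transcript, and 50 or 250 bp for motifs. Leaving out Nfia was added after seeing the data. Tools were bedtools 2.31.1 and Python 3.11.15 with scipy 1.17.1, numpy 2.4.6, matplotlib 3.10.9 and pandas 2.3.3. One of the marker genes is not reported here.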

Additional observations from a re-analysis of the deposited data

Results flagged for a closer look

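The difference in peak number between SMC and non-SMC went in opposite directions for lines numbered 1 and lines numbered 2 at 3 loci. At Nfia, SMC minus non-SMC was 172 peaks for lines 1 and -4 for lines 2. At Nfic it was 6 and -5, and at Nfix -6 and 20. Each number holds 1 library of each type, so this difference was not tested. S1 had a lower implied depth than N1, and S2 a higher one than N2. At Nfia the local background of S1 was raised, with a median ratio of 18.6.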

How the results depend on the processing

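The SMC-only regions of the 4 loci numbered 27, the non-SMC-only 19 and those with a peak in all 4 libraries 26. At a -log10 q of at least 5 they were 8, 9 and 7, so the order of the first and second turned. The SMC-only and non-SMC-only shares of the genome were then 6.12% and 20.1%, where over all peaks they were 4.37% and 7.33%. With a library left out the SMC-only count ran from 32 to 256, the non-SMC-only count from 23 to 77 and the count in all remaining libraries from 30 to 38. In the genome the SMC-only share then ran from 6.05% to 37.8% and the non-SMC-only share from 9.20% to 32.3%. Without the flanks SMC-only and all-library regions were 17 and 7, and after thinning 15 and 13. By locus, the SMC-only regions after thinning were 3 of 158 at Nfia and 11 of 61 at Nfib. They were 1 of 48 at Nfic and 0 of 65 at Nfix, against 8607 of 195809 in the genome. Only Nfib was then above the share of the genome. Without the flanks they were 5 of 145, 9 of 77, 0 of 18 and 3 of 43 in that order, against 15618 of 357570. A reciprocal overlap of 50% left 10 regions with a peak in every library. Same-numbered lines share only a number, and whether it is a pairing is not stated. With line number as a replicate block, the mean over numbers 1 and 2 was 194, 81.5 and 45, since only 1 library per type is then required. These means are given without a share of the genome, so they are not set against it. Promoter pairs were 13, 16 at the start of every transcript, and 6 with promoters of 2 kb or a -log10 q of at least 5. The NFI core was in 35.0% of regions, in 20.7% with 50 bp on each side and in 65.3% with 250 bp. Without Nfia, which was left out after seeing the data, the counts were 19, 17 and 22. The median background ratio of S1 at Nfia was 18.6, and 13.7 over the median background of the library. The other alternatives stayed within 1.5 times. By locus, 61 of the counts stayed within 1.5 times and 71 did not. Depth limits the absence of a peak, most of all in S1 and N2.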
